A study of Mus musculus with 6 samples.

Results

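Macrophage transcripts were examined in 10 genes, Adgre1, Cd68, Csf1r, Csf1, Mrc1, Cd163, Trem2, Gpnmb, Msr1 and Lyz2. They were chosen by symbol, and each stood on 1 of the 19176 gene rows measured by bulk RNA sequencing of mouse renal cortex. The UIRI group was wild-type male C57BL/6J mice, 8 weeks old when obtained, whose left renal pedicle was clamped and released and which then received vehicle by daily intraperitoneal injection. The UIRI + BA group had the same strain, sex, age and operation and received bruceine A (BA) at 1 mg/kg each day by the same route. The deposited labels spell the compound brucine A. In both groups the right kidney was removed the day before the tissue was taken on day 14. Each group had 3 libraries from separate mice. A sham group was not analysed here, so the comparison asks how the genes differed with BA after injury and not how injury itself altered them.

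Macrophages are phagocytes that live in every tissue and are joined after injury by cells that arise from blood monocytes. Their survival depends on the receptor CSF1R, which binds the cytokines CSF1 and IL-34, and injured kidney tubules are a known source of CSF1. In the kidney after ischemia, macrophages first clear dead cells, and those that remain are known to take part in either repair or scarring. Macrophages filled with lipid and cell debris are marked by TREM2 and GPNMB, and scavenger and mannose receptors mark cells that take up matrix and debris.

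The data show a small, uneven difference. The BA mean was below the UIRI mean for all 10 genes. Their log2 fold changes had a median of -0.25, where the median over all 19176 rows was -0.01 and 51.1% of rows were lower. The 2 genes with the lowest ratios were Gpnmb, at 0.584 of the UIRI level, and Trem2, at 0.667. Msr1, Cd68, Lyz2 and Mrc1 lay between 0.819 and 0.852 of the UIRI level, Csf1r and Adgre1 at 0.890 and 0.894, and Cd163 and Csf1 at 0.967 and 0.994. At an adjusted p below 0.05 over all rows limma, the main test, called 0 of the 10 and 0% of all rows. DESeq2 on whole reads called 1 of the 10, Gpnmb, where 0.349% of the 14340 rows it adjusted were called lower. At an unadjusted p below 0.05 limma counted 4 of the 10, Gpnmb, Trem2, Msr1 and Mrc1, all lower with BA, where 4.61% of all rows were lower and 5.67% higher by that rule. In tissue RNA, fewer macrophages and less of a transcript in each macrophage cannot be told apart.

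The stretches of DNA just before 3 of these 4 genes are shown, because they are the members with the clearest differences and hold, or lack, letters bound by factors known from myeloid cells. They were taken from RefSeq on build GRCm38.p6, where 7 of the 10 members had an entry. Each runs 5′ to 3′ on the gene's own strand, the plus strand in all 3. Capitals mark the letters GAGGAA on either strand (a PU box, the core bound by the myeloid factor PU.1) and TGANTCA. The latter takes any base at N, a loose form of the AP-1 site, and is called AP-1 site below. The matches of these windows do not overlap. The Mrc1 window covers chr2:14229164-14229391 and was ended where the GENCODE gene begins, the Gpnmb window chr6:49036268-49036517 and the Trem2 window chr17:48346151-48346400.
Mrc1: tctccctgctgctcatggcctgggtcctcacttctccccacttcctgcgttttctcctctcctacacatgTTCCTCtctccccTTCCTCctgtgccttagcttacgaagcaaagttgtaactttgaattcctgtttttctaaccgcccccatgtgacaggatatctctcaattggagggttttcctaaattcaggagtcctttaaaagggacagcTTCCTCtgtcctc
Gpnmb: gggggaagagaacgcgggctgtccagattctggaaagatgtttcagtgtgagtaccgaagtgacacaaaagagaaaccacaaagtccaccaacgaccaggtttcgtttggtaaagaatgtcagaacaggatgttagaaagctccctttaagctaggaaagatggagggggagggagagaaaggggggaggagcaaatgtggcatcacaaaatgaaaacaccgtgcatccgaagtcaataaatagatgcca
Trem2: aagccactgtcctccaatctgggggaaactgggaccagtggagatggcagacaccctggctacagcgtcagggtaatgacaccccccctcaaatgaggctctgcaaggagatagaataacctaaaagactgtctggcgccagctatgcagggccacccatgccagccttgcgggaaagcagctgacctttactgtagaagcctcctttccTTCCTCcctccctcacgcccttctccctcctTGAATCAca

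The Mrc1 window held the PU box 3 times, all on the opposite strand. The Trem2 window held it 1 time, 40 to 35 bases before the start. It also held an AP-1 site of the loose form, TGAATCA, 9 to 3 bases before the start. The Gpnmb window held neither. Of 32851 windows of 250 bases before RefSeq gene starts, 23.25% held the PU box and 6.75% the AP-1 site, searched on both strands. Among the 7 windows of the members, 3 held the PU box (Mrc1, Cd68 and Trem2) and 2 the AP-1 site (Cd68 and Trem2). The letters CACGTG (an E-box) and TCATGTG (an M-box bound by MITF, a factor known to act on Gpnmb) were found in 0 of the 7 windows, against 6.02% and 3.25% of all windows. These are matches of letters in a short window and say nothing about binding.

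The 6 libraries held between 16510720 and 38124164 reads on genes, the most in UIRI replicate 3. Values are normalized counts, that is, reads divided by the size factor of the library, and their median over all rows lay between 352 and 360 in each library. UIRI replicate 3 stood apart in immune genes: the mean log2 level of 15 core macrophage genes was 12.14, 12.04 and 11.67 in UIRI replicates 1, 2 and 3, and 11.67, 11.77 and 11.61 in the BA libraries. Both replicate 3 libraries carried more urothelial transcripts than the rest. The summed normalized count of 6 urothelium markers was 126, 119 and 524 in UIRI replicates 1, 2 and 3 and 30.1, 31.2 and 320.3 in UIRI + BA replicates 1, 2 and 3. Upk2 was at 0 in UIRI + BA replicates 1 and 2, and Upk3a in UIRI + BA replicate 2. The part of these libraries in the results was not tested, and counts are given below with and without them.

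In UIRI cortex the genes differed widely in level. On the scale of normalized counts per kilobase of exon, Lyz2 stood first with a UIRI mean of 52924, followed by Cd68 at 1418, Csf1r at 1116, Adgre1 at 961 and Mrc1 at 806. Csf1 had 433 per kilobase, Gpnmb 255, Trem2 172, Msr1 123 and Cd163 16.1. Over the 6 libraries the ranges of Cd68, Csf1r, Adgre1 and Mrc1 ran into one another from each gene to the next, as did those of Gpnmb, Trem2 and Msr1. Lyz2, Csf1 and Cd163 each kept apart from their neighbours in this order.

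**Figure D1:**
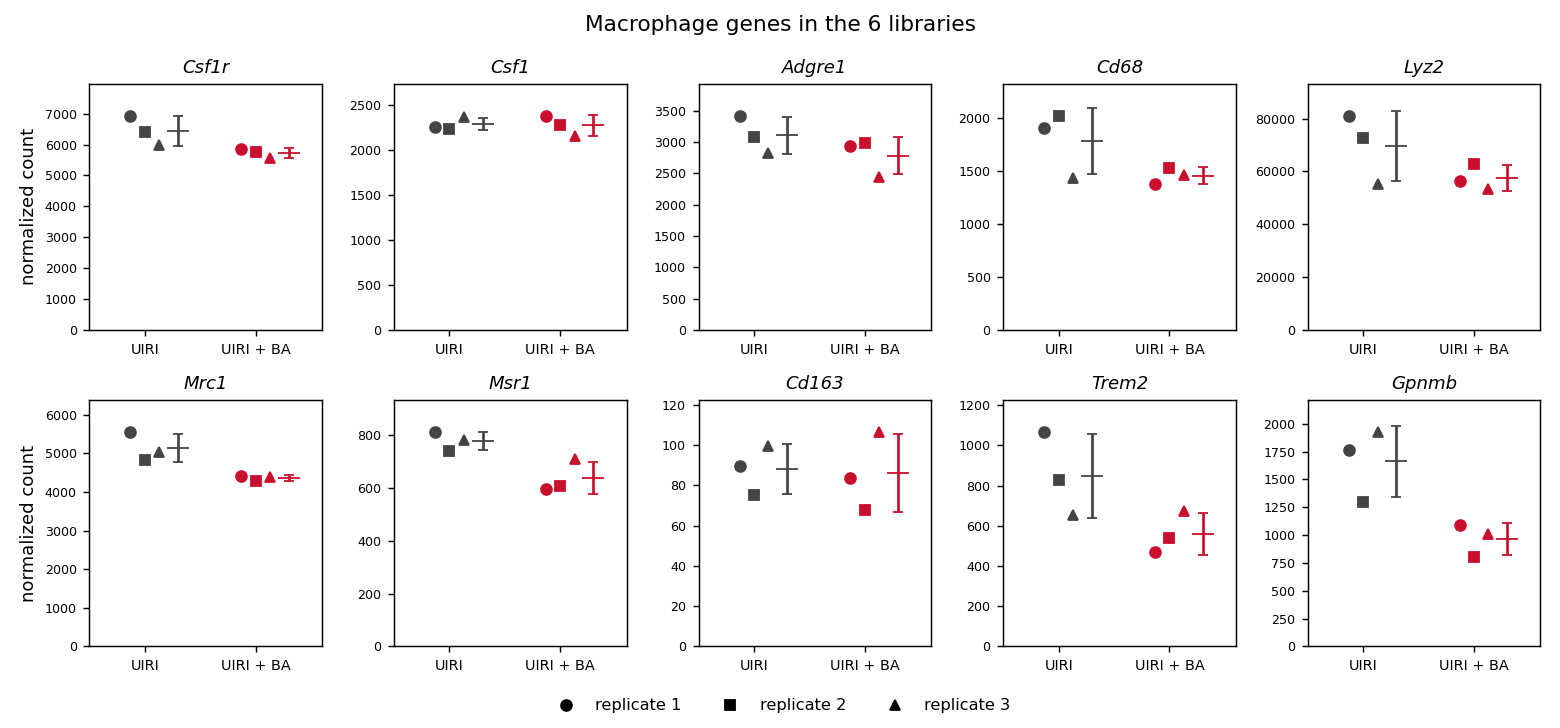
Normalized counts (vertical axis, linear and starting at 0) of the 10 macrophage genes in each library, with the replicate shown by the shape of the point and the mean and SD (n = 3) beside the points. All 3 UIRI + BA libraries lie below all 3 UIRI libraries for Csf1r, Mrc1, Msr1 and Gpnmb, while the groups share their range for the other 6 genes.

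The growth factor and its receptor came first. Csf1r, which encodes the receptor on which macrophages depend, had 6932, 6420 and 5977 normalized counts in UIRI replicates 1, 2 and 3 and 5844, 5773 and 5556 in UIRI + BA replicates 1, 2 and 3. The highest UIRI + BA library lay just below the lowest UIRI library, so the groups did not overlap. The log2 fold change was small, -0.17 (SE 0.079), and limma gave an adjusted p of 0.505 (unadjusted 0.0620). Exons of Csf1r share 873 bases with Hmgxb3 on the other strand in GENCODE. The libraries were made with a strand-specific kit, but the strand setting of the counting is not given in the sources used here.

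Csf1, the ligand, had 2254, 2237 and 2364 normalized counts in the UIRI libraries and 2380, 2280 and 2157 with BA. The groups overlapped fully and their means, 2285 ± 68.6 and 2272 ± 112 (SD, n = 3), lay within the spread. The 95% interval of the log2 fold change ran from -0.17 to 0.15 (limma adjusted p = 0.971), so a difference beyond that size was outside the interval. Its direction turned when either replicate 3 library was left out. Among 4 other ligands and receptors of macrophage growth (Il34, Csf2, Csf2ra and Csf2rb), none had an unadjusted p below 0.05. Csf2rb, the shared receptor chain for GM-CSF, IL-3 and IL-5 and the one with the lowest p, had means of 1289 ± 143 and 1149 ± 155 (SD, n = 3) and a limma adjusted p of 0.623.

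Genes that mark macrophages in general followed. Adgre1 encodes F4/80, the surface protein most used to stain mouse macrophages. It had 3423, 3084 and 2831 normalized counts in UIRI and 2933, 2981 and 2441 with BA. The groups overlapped, and the log2 fold change of -0.16 (SE 0.103) had a limma adjusted p of 0.598.

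Cd68, a glycoprotein of the lysosomes of phagocytes, had 1900, 2019 and 1429 normalized counts in UIRI and 1373, 1529 and 1462 with BA. UIRI replicates 1 and 2 were above every BA library and UIRI replicate 3 lay among them. The log2 fold change was -0.28 (SE 0.125, limma adjusted p = 0.491, unadjusted p = 0.0525). Without UIRI replicate 3, the lowest UIRI library for this gene, the log2 fold change was -0.43, with a limma adjusted p of 0.0206.

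Lyz2, lysozyme, is made by macrophages, monocytes and neutrophils and was the most abundant member. It had 81113, 72644 and 55189 normalized counts in UIRI and 56524, 62706 and 53234 with BA. As with Cd68, UIRI replicate 3 fell among the BA libraries, and the log2 fold change was -0.26 (SE 0.153, limma adjusted p = 0.568). Its neighbour Lyz1 is a near copy: 15.39% of the 50-base windows of the Lyz2 transcript occur unchanged in Lyz1, so some reads may be shared out between them. Lyz1 had means of 2084 ± 621 and 1809 ± 529 (SD, n = 3), a small share of the Lyz2 level, and a limma adjusted p of 0.792.

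Mrc1, Msr1 and Cd163 encode receptors for uptake, and whether they differed from one another was not tested. Mrc1 lies at chr2:14229392-14332057 and encodes the mannose receptor CD206, which takes up collagen fragments and glycoproteins. It had 5541, 4833 and 5023 normalized counts in UIRI and 4422, 4284 and 4388 with BA. The BA libraries were close together and all below UIRI. The log2 fold change was -0.23 (SE 0.077, limma adjusted p = 0.389, unadjusted p = 0.0142).

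Msr1, at chr8:39581685-39642673, encodes the class A scavenger receptor for modified lipoproteins. It had 811, 741 and 780 normalized counts in UIRI and 598, 608 and 710 with BA, again without overlap. Its log2 fold change was -0.29 (SE 0.094, limma adjusted p = 0.389, unadjusted p = 0.0136). UIRI replicate 3 took its place among the UIRI libraries for both receptors.

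Cd163, the haemoglobin-haptoglobin scavenger receptor, was near the lower end of the data, with 63 to 182 reads per library. It had 89.5, 75.4 and 99.7 normalized counts in UIRI and 83.9, 67.8 and 106 with BA. The groups overlapped fully, and the 95% interval of the log2 fold change, -0.50 to 0.40, was wide (limma adjusted p = 0.942).

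Trem2 and Gpnmb had the lowest ratios of the 10 genes. Trem2, a receptor for lipids and apolipoproteins that signals through the adaptor TYROBP, lies at chr17:48346401-48354147. It had 1065, 829 and 652 normalized counts in UIRI and 469, 541 and 673 with BA. The groups overlapped by their replicate 3 libraries, since UIRI + BA replicate 3 stood just above UIRI replicate 3. The log2 fold change was -0.58 (SE 0.184, limma adjusted p = 0.372, unadjusted p = 0.0113), and leaving out 1 library moved it between -0.76 (UIRI replicate 3 absent) and -0.41 (UIRI replicate 1 absent).

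Gpnmb, at chr6:49036546-49070929, encodes a membrane glycoprotein induced by lysosomal load in macrophages and osteoclasts and found in melanocytes too. It had 1761, 1301 and 1923 normalized counts in UIRI and 1087, 803 and 1006 with BA. The lowest UIRI library was above the highest BA library. Means were 1662 ± 323 and 966 ± 146 (SD, n = 3), with a log2 fold change of -0.77 (SE 0.158, 95% interval -1.13 to -0.42). The limma adjusted p was 0.225, with an unadjusted p of 0.000805. On whole reads DESeq2 gave Gpnmb a log2 fold change of -0.79 and an adjusted p of 0.000972. Gpnmb was the 1 member called, where DESeq2 called 0.349% lower among the 14340 rows to which it gave an adjusted p. The edgeR quasi-likelihood test gave an adjusted p of 0.251. The melanocyte marker Pmel had 13.6 to 20.2 normalized counts per library, and 3 others of its list were not analysed here. UIRI replicate 3 was the highest library for Gpnmb, while it had the lowest UIRI level of the 15 core macrophage genes. Which cells gave the Gpnmb reads was not tested.

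**Figure D2:**
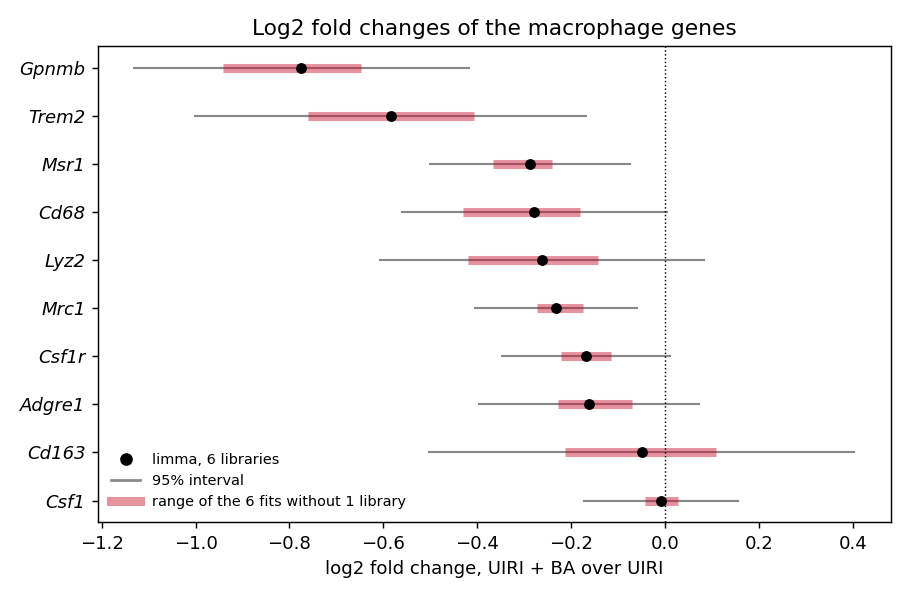
Log2 fold change of UIRI + BA over UIRI (horizontal axis) for each gene, with its 95% interval as a thin line and, as a thick band, the range over 6 fits that each leave out 1 library. Gpnmb (-0.77) and Trem2 (-0.58) lie farthest from 0, and the bands of Csf1 and Cd163 cross 0.

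Groups did not overlap, with BA lower, for 4 of the 10 genes (Csf1r, Mrc1, Gpnmb and Msr1), where 6.96% of all rows did so. These counts depended on UIRI replicate 3. Without it limma counted 8 of the 10 at an unadjusted p below 0.05, all lower, beside 11.5% of all rows, and the groups of the same 8 did not overlap, beside 22.4% of rows. The 2 left out were Csf1 and Cd163. At an adjusted p below 0.05 limma then called Cd68 (0.0206), Trem2 (0.0327) and Gpnmb (0.0417), where 1.79% of all rows were lower by that rule. UIRI replicate 3 had the lowest mean log2 level of the members in its group (11.03, against 11.23 and 11.06). Leaving it out therefore raises the UIRI mean of the members as a set, so these counts describe the libraries and add no support of their own. With both replicate 3 libraries left out limma called Cd68 and Trem2, beside 1.07% of rows, with adjusted p values of 0.0387 and 0.0151. In those 2 against 2 libraries 7 members were lower at an unadjusted p below 0.05, beside 10.8% of rows. The groups did not overlap for 8 members with BA lower, beside 28.2% of rows, and for Csf1 with BA higher. Leaving out UIRI replicate 1, UIRI + BA replicate 1 or UIRI + BA replicate 2 brought the count at an unadjusted p below 0.05 from 4 to 2 each time. Over all 19176 rows, those lower by that rule also went down, from 884 to 308, 522 and 806 in the same order.

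The members were then set against other genes that mark macrophages. Of 15 core macrophage genes, among them complement C1q, Fc receptors, Tyrobp and Ctss, 14 had lower values with BA, and the median of their log2 fold changes was -0.32. At an unadjusted p below 0.05 limma counted 3, all lower, where 4.61% of all rows were lower, and after adjustment over all rows 0. Cx3cr1, the fractalkine receptor, had 3954, 3444 and 2681 normalized counts in UIRI and 2390, 2361 and 2329 with BA (log2 fold change -0.49, limma adjusted p = 0.291), with no overlap. Itgam, the integrin CD11b, and Aif1, the actin-binding protein IBA1, had log2 fold changes of -0.32 and -0.37 with limma adjusted p values of 0.398 and 0.484, and UIRI replicate 3 fell within the BA range for both. Mertk, a receptor for dying cells that was named after its value was seen, was the 1 gene with a higher mean (log2 fold change 0.07, limma adjusted p = 0.725). It had 1645, 1613 and 1618 normalized counts in UIRI and 1656, 1746 and 1711 with BA, so every BA library was above every UIRI library. The count of 3 reached 13 of 15 without UIRI replicate 3, the UIRI library with the lowest mean level of these genes. In that fit 2209 of all 19176 rows were lower and 2629 higher by the same rule.

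For each library, the log2 level of a member minus the mean log2 level of the 15 core genes gives its level relative to these genes. It rises wherever the core genes fall, also for a transcript made by other cells, and injured tubules are a known source of CSF1. On this scale the groups overlapped for all 10 members. The ratio of Lyz2 to the core genes was nearly constant, between 4.08 and 4.17 in all 6 libraries, and Cd68 also differed little, with group means of -1.17 ± 0.099 and -1.17 ± 0.078 (SD, n = 3).

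Gpnmb had relative levels of -1.36, -1.69 and -0.76 in UIRI and -1.58, -2.11 and -1.63 with BA, a difference of -0.50. Trem2 had -2.09, -2.34 and -2.32 in UIRI and -2.80, -2.68 and -2.21 with BA, a difference of -0.31. Both had an exact two-sided permutation p of 0.3, where the smallest p that 3 against 3 libraries can give is 0.1. Over the 10 genes the exact permutation p ran from 0.3 to 1. Csf1 and Cd163 had the largest positive differences, 0.26 and 0.22, where their own log2 fold changes were -0.01 and -0.05.

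Without UIRI replicate 3 the relative levels of Adgre1, Csf1r, Csf1 and Mrc1 were higher with BA in every library. Their differences were 0.18, 0.19, 0.43 and 0.17, and that of Gpnmb came to -0.25. UIRI replicate 3 had the lowest core level of its group (11.67, against 12.14 and 12.04). Leaving it out raises the UIRI level that is subtracted, which by itself moves these differences upward. No share of all rows without overlap was computed on this scale, in this or any other fit. Without UIRI replicate 2 the relative level of Gpnmb did not overlap, and without UIRI + BA replicate 3 that of Trem2 did not overlap, both lower with BA.

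**Figure D3:**
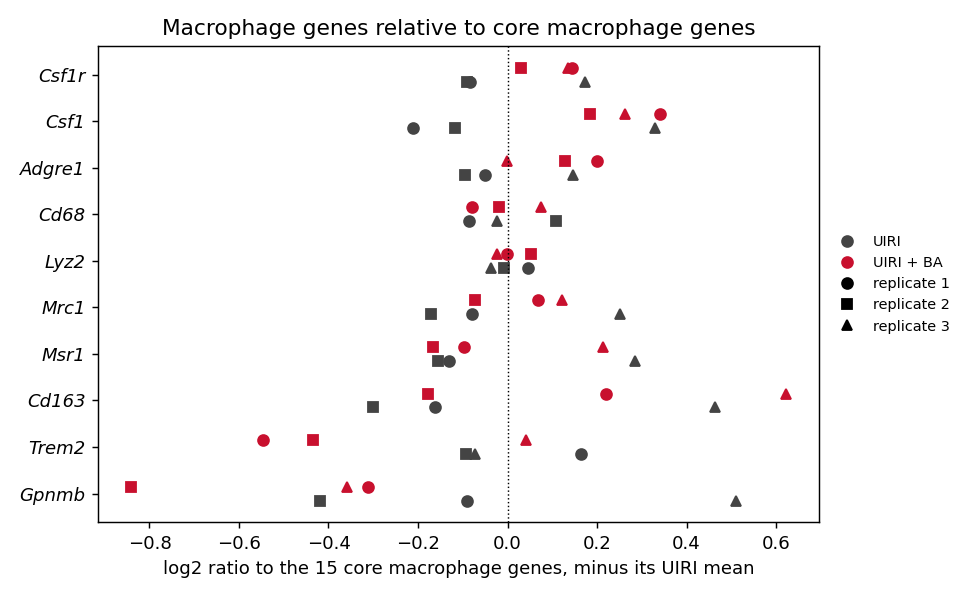
Level of each macrophage gene relative to the 15 core macrophage genes (log2, horizontal axis), shown per library after subtracting the mean of the 3 UIRI libraries, with group by colour and replicate by shape. Lyz2 stays near 0 in all 6 libraries, and the groups share part of their range for every gene, Gpnmb and Trem2 included.

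Taken as 9 lists that include the core and growth factor genes already described, macrophage biology beyond the members was covered by 85 different genes, of which 82 were measured. Of these, 65 had lower and 17 higher values with BA, and the median of the log2 fold changes was -0.20. At an unadjusted p below 0.05 limma counted 14 lower and 2 higher, and after adjustment 0. Limma called 0% of all rows after adjustment, and the adjusted p of DESeq2 is not given here for these genes. Of all rows 4.61% were lower and 5.67% higher by the unadjusted rule. These shares stand beside the count of each single list below, also those of other cells. The lists were chosen with earlier results of these data known.

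Among 14 genes of lipid-associated macrophages, 10 were lower, 4 of them at an unadjusted p below 0.05, and 4 were higher. The median of their log2 fold changes was -0.19, nearer to 0 than that of the 15 core genes. Their summed normalized counts overlapped between the groups, with 483781 to 528394 in UIRI and 485335 to 556535 with BA. These sums were far above those of the 15 core genes, 71504 to 96041 in UIRI and 66399 to 74921 with BA. Which cells gave the reads of this list was not tested. Fabp5, a carrier of fatty acids, had 924, 875 and 821 normalized counts in UIRI and 535, 589 and 661 with BA, without overlap. Its log2 fold change was -0.56 (SE 0.0998, limma adjusted p = 0.225, unadjusted p = 0.000324). The others were Lgals3, galectin-3, at -0.30, Mmp12, macrophage elastase, at -0.20, and Atp6v0d2, a subunit of the lysosomal proton pump, at -0.20, with limma adjusted p values of 0.471, 0.460 and 0.484. In the list of TREM2 signalling and TREM relatives all 9 genes had lower values with BA and none had an unadjusted p below 0.05. Inpp5d, the phosphatase SHIP1 that restrains signalling below TREM2, had the lowest p of them (log2 fold change -0.20, limma adjusted p = 0.495).

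Among the transcription factors of macrophages and lysosome genes, 8 of 12 were lower and 4 higher. Maf, a basic leucine zipper factor, had 4261, 3901 and 4400 normalized counts in UIRI and 5282, 4768 and 4519 with BA (log2 fold change 0.21, limma adjusted p = 0.462). Tfec, a relative of MITF, had 532, 653 and 674 in UIRI and 785, 734 and 854 with BA (0.36, limma adjusted p = 0.364). Both were higher with BA and neither overlapped between the groups. Maf is also known from tubule cells, and which cells gave these reads was not tested.

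Of 6 resident and scavenger macrophage genes measured, 5 were lower, with Clec10a, a lectin, at a log2 fold change of -0.30 and Pf4, a chemokine, at -0.49 (limma adjusted p values of 0.442 and 0.472). Of 6 monocyte genes 5 were lower. Ccr2, the receptor that draws monocytes from the blood, had 11041, 11413 and 9194 normalized counts in UIRI and 9041, 9512 and 8132 with BA, with a slight overlap (-0.24, limma adjusted p = 0.483). Vcan, a matrix proteoglycan made by monocytes and also by fibroblasts, did not overlap (-0.46, limma adjusted p = 0.368).

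The activation lists differed in their counts. All 8 genes of alternative activation were lower with BA, 2 of them at an unadjusted p below 0.05. Ccl22, a chemokine, had 383, 390 and 336 normalized counts in UIRI and 247, 268 and 227 with BA (log2 fold change -0.58, SE 0.112, limma adjusted p = 0.225), and Retnla, a secreted protein induced by IL-4, had 7228, 7412 and 3892 in UIRI and 3302, 4674 and 3364 with BA (-0.67, limma adjusted p = 0.425). Retnla again placed UIRI replicate 3 among the BA libraries. Of 9 inflammatory activation genes 4 were lower and 5 higher, their median log2 fold change was 0.00446, and none was at an unadjusted p below 0.05. Ptgs2, cyclooxygenase 2, had the lowest p (-0.58, limma adjusted p = 0.495). Whether the lists differed from one another was not tested.

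Profiles over the 6 libraries were compared with those of 13929 other genes by the root mean square difference of centred log2 values. Nearest to Csf1r were Sptssa (0.0177), Polr3k (0.0227) and Gpc1 (0.0228). Nearest to Cd68 were Fxyd5 (0.0231), Ftl1 (0.0303) and Mill2 (0.0331). Nearest to Gpnmb were Adgrl3 (0.102), Nfe2l3 (0.119) and Spink12 (0.128). Values were not scaled to the spread of each gene, so a gene with a larger difference tends to lie farther from all others. The log2 fold change of Gpnmb was -0.77, against -0.17 for Csf1r and -0.28 for Cd68. With 6 libraries such closeness is a description of these samples.

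Markers of other cells were followed in the same libraries, since they moved beside the macrophage genes. All 4 neutrophil markers measured were lower with BA, and their summed normalized count ran from 1249 to 1739 in UIRI and from 1035 to 1164 with BA. Among them S100a8, S100a9 and Cxcr2 had an unadjusted p below 0.05 (log2 fold changes -0.77, -0.69 and -0.51, limma adjusted p values of 0.291, 0.225 and 0.423). All 6 dendritic cell markers were lower, with sums of 2664 to 3451 and 2465 to 2926, and Ccr7 at -0.54 was the 1 below that p (limma adjusted p = 0.291). Of 5 T cell markers 4 were lower and of 6 B and plasma cell markers 5, none below that p, with sums of 1099 to 1444 and 916 to 1518 for T cells and of 371 to 512 and 266 to 487 for B and plasma cells.

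All 5 fibroblast markers were lower with BA, with sums of 59068 to 72613 in UIRI and 41880 to 57022 with BA, and 3 of them had an unadjusted p below 0.05. All 6 proximal tubule markers were higher, each at an unadjusted p below 0.05, with sums of 21927 to 31884 and 37463 to 46890. Injured tubule markers were split. At an unadjusted p below 0.05 Havcr1, Vcam1 and Krt20 were higher (log2 fold changes 0.42, 0.35 and 0.41) and Lcn2 lower (-0.51), with limma adjusted p values of 0.263, 0.311, 0.389 and 0.225, while the list as a whole had 4 of 5 higher. Their sums ran from 34913 to 39015 in UIRI and from 41923 to 46584 with BA. Endothelial markers had sums of 7174 to 8423 and 7028 to 7898, and 4 collecting duct markers sums of 1030 to 1485 and 1071 to 1605, neither list with a gene below that p. All 6 urothelium markers were lower and none was below that p. None of the genes in these lists passed limma's adjusted p. Limma called 0% of all rows by that rule, and the adjusted p of DESeq2 is not given here for these genes. Their part in the macrophage differences was not tested.

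**Figure D4:**
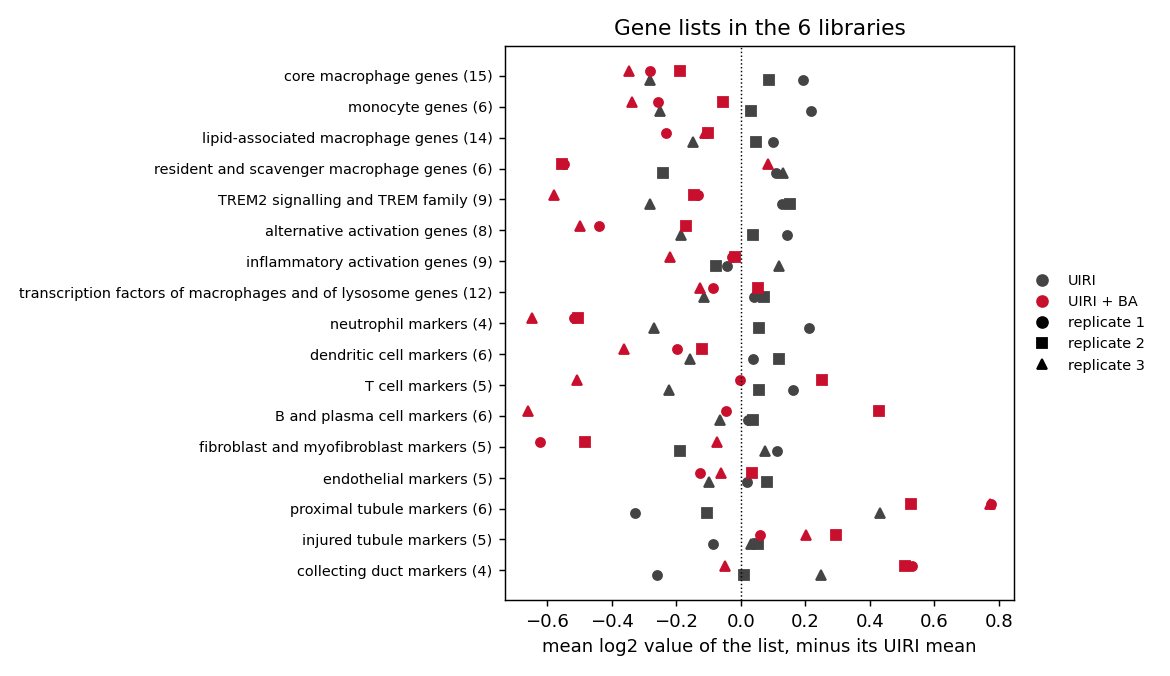
Mean log2 normalized count of each gene list (number of genes in brackets) per library, after subtracting the mean of the 3 UIRI libraries (horizontal axis), with group by colour and replicate by shape. For the core macrophage genes UIRI replicate 3 lies among the UIRI + BA libraries, while the proximal tubule list is higher with BA in every library.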

How the data were processed

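RNA sequencing libraries of renal cortex from 3 UIRI and 3 UIRI + BA mice were grouped by their labels, and all 6 were used. The methods name HISAT2 for alignment, FeatureCounts for counting and DESeq2 for testing, while the genome build and annotation are not given in the sources used here. The authors deposited a signal value for each gene in each library, a read count scaled by the size factor of its library. Dividing by the smallest step gave whole reads for 100% of values (tolerance 0.05 reads), which came to 16510720 to 38124164 per library. The table holds 19176 rows with 19166 symbols. Each row had at least 10 reads over the 6 libraries. The authors' fold change and p-value columns and their Gene Ontology and KEGG enrichment tables were not used, and 0 columns of library values went unused.

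The deposited values are scaled, so limma 3.58.1 in R 4.3.3 on these values was the main test. Count tests on the recovered whole reads were the alternatives. The model took log2 values after adding 1, used a variance trend and all rows, and had no covariate, and p-values were adjusted by the Benjamini-Hochberg method over all rows. Fold changes on this scale understate those of low genes. On the whole reads, DESeq2 1.42.0 and the edgeR 4.0.16 quasi-likelihood test called 213 and 0 genes at an adjusted p below 0.05. The edgeR test covered 17155 genes, of which 1703 had an unadjusted p below 0.05. Relative levels were tested by exact permutation over the libraries, two-sided. Positions and lengths came from GENCODE M21 (GRCm38) and promoters from RefSeq (GRCm38.p6), matched by symbol.

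The members and gene lists were chosen with earlier results of these data known. Named genes are the members, list genes with an unadjusted p below 0.05 or else the lowest p, the 3 nearest profiles of Csf1r, Cd68 and Gpnmb among genes with a mean of at least 50, and Lyz1. A gene that this rule covers is not reported here. List members given only to describe a list and Mertk lie outside this rule. With 3 mice in each group, the number of mice and not the depth limits the precision of most genes.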

Additional observations from a re-analysis of the deposited data

How the results depend on the processing

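All 10 members stayed lower with BA with upper quartile or quantile scaling, with 0.1 added in place of 1, with low genes removed (below 1 in any library), with DESeq2 and with edgeR. The core macrophage genes at an unadjusted p below 0.05 went from 3 to 7 with upper quartile scaling, 9 with DESeq2, 5 with edgeR and 11 with both replicate 3 libraries left out. Over all rows tested, those lower by that rule went from 884 to 1046, 654, 756 and 2065 in the same order. Both left out also gave 7 members at an unadjusted p below 0.05, 2 at an adjusted p, 9 without overlap (8 lower with BA and Csf1 higher, where 28.2% of all rows were lower without overlap) and 5 without overlap relative to the core genes, and turned the log2 fold change of Csf1 to 0.0528. DESeq2 called 1 member after adjustment. The cause was not tested.

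The labels do not say whether the replicate numbers pair the mice, and 3 libraries in each group are too few to decide it. The deviations of same-numbered libraries from their group means correlated at -0.24, 0.30 and 0.15 over 17249 genes. Those of unlike-numbered libraries correlated between -0.41 and 0.24. With a replicate block the core genes at an unadjusted p below 0.05 numbered 10, the members 5, and 0 members passed the adjusted p. By the unadjusted rule 1002 of all rows were then lower and 1104 higher.

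With 1 library left out at a time, the counts ran from 2 to 8 (members, unadjusted p), 0 to 3 (adjusted p), 4 to 8 (no overlap), 1 to 13 (core genes) and 0 to 4 (relative level, no overlap). Of all 19176 rows, the same fits held 308 to 2209 lower at the unadjusted p, 0 to 344 at the adjusted p and 1762 to 4305 without overlap. The median log2 fold change of the members ran from -0.265 to -0.159. Csf1 ran from -0.0429 to 0.0282, Cd163 from -0.213 to 0.108 and Lyz1 from -0.476 to 0.0307. Over single log2 fold changes, 671 alternatives kept direction and side of an unadjusted p of 0.05, 38 passed it, 69 no longer did and 6 reversed. Of the ratios, 128 moved by less than the spread and 2 by more. Counts of reads per member, 63 or more in every library, limit only Cd163 appreciably.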
